A study of Homo sapiens with 6 samples.

Results

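The large subunit of the mitochondrial ribosome was followed in A549, an established cell line from a human lung adenocarcinoma, whose MRPL35 transcript had been targeted with a short hairpin RNA. Its genes were taken as all genes whose symbol is MRPL followed only by digits. This gave 48 genes, read by 98 probe sets, out of 18244 genes tested. They are the target MRPL35 and 47 others. The 3 knockdown samples (KD) received lentivirus with the hairpin against MRPL35 and the 3 control samples (NC) lentivirus with a control hairpin, and each sample was hybridised to 1 Affymetrix array. The labels give no time after transduction and no hairpin sequence, name a single hairpin against MRPL35, and do not say whether samples came from separate cultures. The p-values thus reflect the spread among these samples alone, which may be technical, and with 3 arrays a group precision is limited. The source name of 2 NC samples carries another cell line number than their characteristics, which give A549.

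Mitochondrial ribosomes translate the small set of respiratory chain proteins encoded in mitochondrial DNA. All their proteins are encoded in the nucleus, made in the cytosol and imported. The large subunit holds the peptidyl transferase centre, where the peptide bond forms. It also holds the exit tunnel, a pair of mobile stalks that handle tRNA and translation factors, and the central protuberance, which faces the small subunit and the tRNAs. Some of its proteins have homologues in the bacterial ribosome and others, called mitochondria-specific below, do not. Inherited defects in several of them are known to impair oxidative phosphorylation.

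Arrays of the same group correlated at 0.994 to 0.998 across genes, against 0.976 to 0.980 between groups. NC replicate 2 stood apart from the other arrays on the second principal component, which carried 11.8% of the variance. The A549 label fitted its markers. KRT8, KRT18 and KRT19, keratins of simple epithelia, had means above those of at least 97.8% of genes, and the 6 measured detoxification genes known to be high in A549 had means above those of at least 99.1%. The epithelial adhesion genes CDH1 and EPCAM ranked lower, at 88.8% and 47.1%, and 4 of 5 epithelial genes rose in KD. Of 14 measured markers of leukocytes, fibroblasts and endothelium 13 did not pass the test, which reads change and not absence. Their means reached at most percentile 43.7 for leukocytes, 34.5 for fibroblasts and 45.7 for endothelium, the last close to EPCAM. CD14, a leukocyte marker, rose by 0.60 ± 0.11 (log2, standard error, limma adjusted p = 0.00293). The mean level of the leukocyte list was 3.94 to 3.98 in KD and 3.78 to 4.0 in NC, and its part in the results was not tested. Values below are log2 probe-set values, and changes are KD minus NC ± standard error from limma with 3 arrays per group. A gene is said to have fallen or risen at a Benjamini-Hochberg adjusted p under 0.05, with the adjustment over 18244 genes.

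The target fell, on all of its probe sets. The brightest probe set of MRPL35, which has a bacterial homologue, had values of 6.49, 6.44 and 6.56 in the KD arrays and of 8.16, 8.05 and 8.36 in the NC arrays, in the order of replicates 1 to 3 that is kept below. The groups did not overlap, and the change was -1.69 ± 0.096 (limma adjusted p = 3.77e-06), which left 30.9% of the control signal. All 3 further probe sets fell as well, by -1.98, -1.37 and -0.42, the last of them being the dimmest, at a mean of 4.52.

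Beside the target, 18 of the 47 other large-subunit genes fell, 2 rose and 27 did not pass. That is 38.3% lower and 4.26% higher, where over all genes tested 15.9% were lower and 17.6% higher (33.5% together). The 47 were bright, with a median level at percentile 91.1 of all genes. With genes below the 40th percentile left out, 22 of the 47 fell and 5 rose, where 2872 of 10946 genes fell and 3197 rose. Shares of all genes given below include these dimmer genes. The median change of the 47 was -0.18, where that of all genes was -0.018. The median level of the 47, relative to the NC mean of each gene, was -0.19, -0.17 and -0.17 in KD and 0.0049, -0.070 and 0.064 in NC. NC replicate 2 was the lowest of the controls and lay above every KD array. Leaving out any 1 array gave 13 to 23 falls, the most of them without NC replicate 2. In 26 of the 47 genes every KD array lay below every NC array (21.5% of all genes did), and in 8 every KD array lay above (23.2% of all genes). Related lists showed the same separation. KD lay below NC in 17 of 29 small-subunit genes and above in 3, and in the cytosolic large subunit below in 28 of 43 and above in 0. A change of at least 1 on the log2 scale was reached by 2 of the 47, MRPL42 and MRPL46, against 5.36% of all genes.

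**Figure D1:**
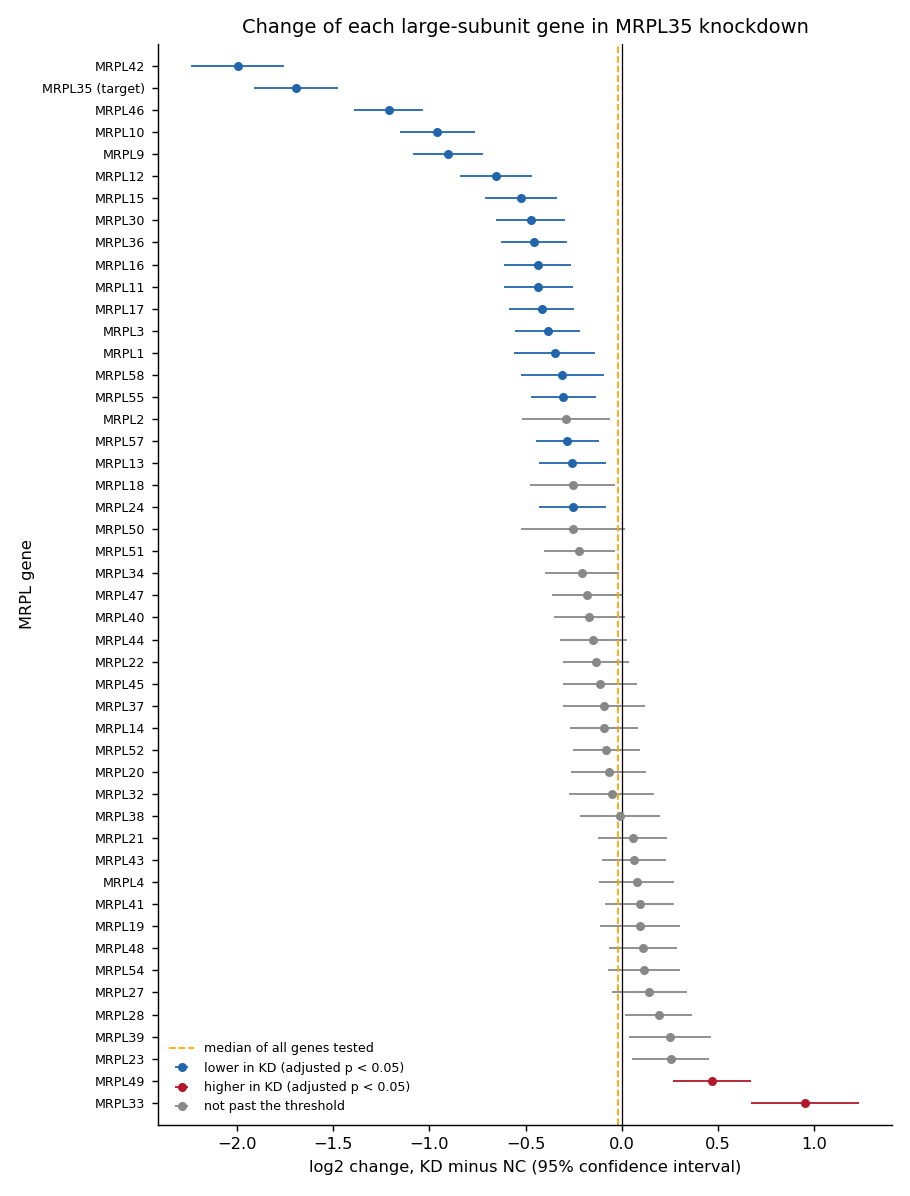
Log2 change (KD minus NC, horizontal axis) of each of 48 large-subunit genes (vertical axis), with points for the estimate from 3 arrays per group and bars for its 95% confidence interval from limma. Blue genes fell, red genes rose and grey genes did not pass; MRPL42 (-2.0) and the target MRPL35 (-1.69) stand at the low end and MRPL33 (0.95) at the high end, and the dashed line is the median of all genes (-0.018).

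On the brightest probe set of each gene, the fall in MRPL42 was larger than that of the target itself, although the difference between these changes was not tested. Another probe set of the target, at -1.98, lay within the range of the probe sets of MRPL42. MRPL42 is a mitochondria-specific protein of the large subunit. It read 6.47, 6.26 and 6.39 in KD and 8.50, 8.17 and 8.44 in NC. All KD arrays lay far below all NC arrays, and the change was -2.0 ± 0.11, or 3.99-fold lower (limma adjusted p = 2.71e-06). Its other probe sets changed by -2.03 and -1.59, and both fell. MRPL42 thus fell on all 3 of its probe sets, and under every alternative setting it changed by between -2.10 and -1.87.

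MRPL46, a mitochondria-specific protein of the central protuberance, was the next lowest. It read 7.99, 7.91 and 7.96 in KD and 9.19, 9.08 and 9.23 in NC, with no overlap and a change of -1.21 ± 0.079 (limma adjusted p = 8.01e-06). The gene has 1 probe set, so no second reading exists.

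Of the stalk proteins, 4 of 5 fell, where 15.9% of all genes did. MRPL10 anchors copies of MRPL12 in the stalk that recruits translation factors. It read 8.16, 8.15 and 8.03 in KD and 9.06, 8.98 and 9.18 in NC, a change of -0.96 ± 0.086 (limma adjusted p = 4.23e-05) on its only probe set. MRPL12 itself read 9.68, 9.65 and 9.79 in KD and 10.30, 10.46 and 10.33 in NC. Its change was -0.65 ± 0.083 (limma adjusted p = 0.000307), and its second probe set fell by 0.51 on the log2 scale. Every KD array lay below every NC array in both genes. MRPL11, at the base of the same stalk, fell by 0.43 on the log2 scale (standard error 0.079) and on a second probe set by 0.46. MRPL1, of the other stalk, which moves spent tRNA out, changed by -0.35 ± 0.093 (limma adjusted p = 0.0172). That call was lost in 5 of 14 alternatives, among them leaving out KD replicate 2, where the limma adjusted p was 0.0756. MRPL54, the fifth stalk protein measured, was at 0.12 ± 0.083 and did not pass.

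MRPL9 and MRPL15, further proteins with bacterial homologues, completed the falls of at least 0.5. MRPL9 read 8.26, 8.41 and 8.38 in KD and 9.25, 9.21 and 9.31 in NC, without overlap, a change of -0.90 ± 0.079 (limma adjusted p = 3.96e-05). Its other probe sets moved less, at -0.43 for the next brightest, which fell, and at -0.25 and -0.14 for dim ones that did not pass. With the mean of its probe sets MRPL9 changed by -0.43. MRPL15, a protein of the subunit's core, read 9.89, 10.00 and 9.96 in KD and 10.52, 10.37 and 10.54 in NC. Its change was -0.53 ± 0.083 (limma adjusted p = 0.00107), while a dim probe set at a mean of 4.56 was at -0.081 and did not pass. The mean of its probe sets gave -0.30.

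**Figure D2:**
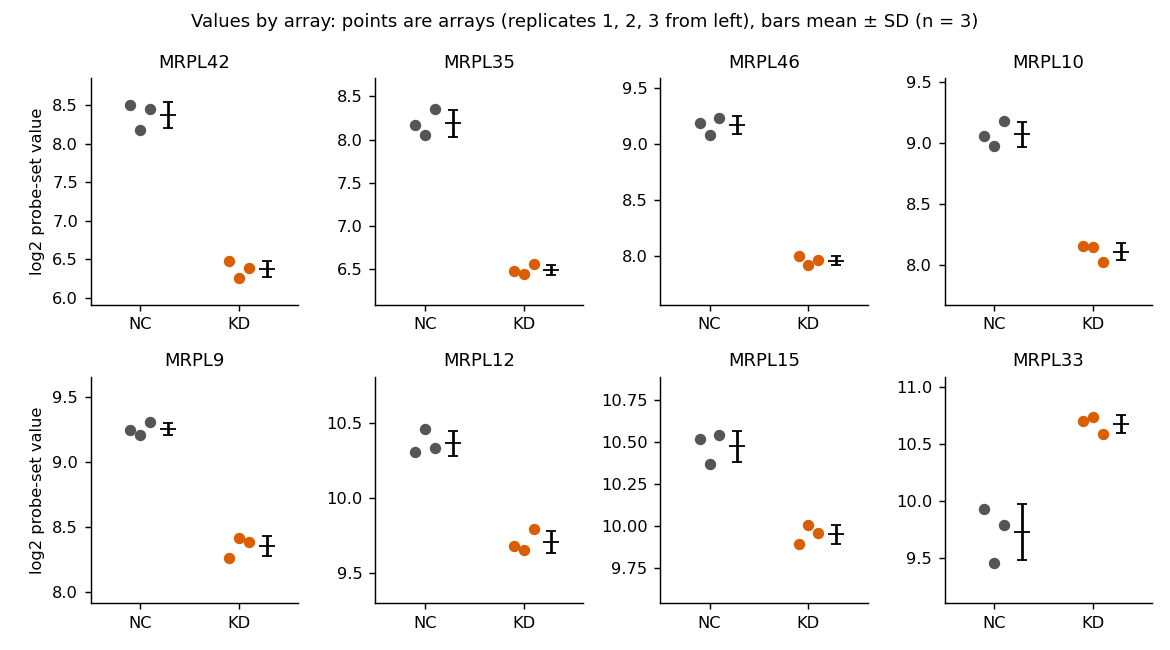
Log2 probe-set value (vertical axis, its range set separately for each gene) of the 8 genes with a change of at least 0.5, in NC and KD; points are single arrays and bars are mean ± SD of 3 arrays. The groups do not overlap in any panel, KD lies below NC in 7 genes and above it in MRPL33, and NC replicate 2 is the lowest NC array in MRPL33 at 9.45.

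The remaining 12 falls were small, between -0.47 and -0.25, with standard errors of 0.072 to 0.095 and limma adjusted p between 0.00138 and 0.0339. On the peptidyl transferase side MRPL16 changed by -0.44 and MRPL3 by -0.39, while MRPL2 (-0.29 ± 0.10, limma adjusted p = 0.0544) and MRPL27 (0.14) did not pass. Of 7 measured proteins at the tunnel or its exit MRPL17 (-0.42) and MRPL24 (-0.25) fell. The others, at -0.18 to 0.25, did not pass, among them MRPL45, which tethers the ribosome to the inner membrane (-0.11 ± 0.085). In the central protuberance MRPL58 and MRPL55 fell beside MRPL46. MRPL58, a peptidyl-tRNA hydrolase that frees stalled chains, was at -0.31 and MRPL55 at -0.30. MRPL18, MRPL38, MRPL40 and MRPL48, of the same part, lay between -0.26 and 0.11 without passing. MRPL30 (-0.47), MRPL36 (-0.46), MRPL57 (-0.28) and MRPL13 (-0.26) were the other small falls, of genes placed in none of these parts. The 3 dimmer probe sets of MRPL57 fell as well, at -0.68, -0.56 and -0.43. Calls in 7 of the 18 falling genes were lost in at least 1 of 14 alternatives: MRPL1, MRPL13, MRPL17, MRPL24, MRPL55, MRPL57 and MRPL58. MRPL17 was at -0.12 (limma adjusted p = 0.489) on its dim probe set, the one left once sets that can hybridise to several transcripts were removed.

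Grouped by origin, 14 of 29 genes with a bacterial homologue fell against 1 that rose (median change -0.26). Of 18 mitochondria-specific genes 4 fell against 1 that rose (median change -0.10), although the largest fall, that of MRPL42, was among them. Over all genes 15.9% fell and 17.6% rose. The difference between the groups by origin was not tested.

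The 2 genes that rose were MRPL33 and MRPL49. MRPL33, a small protein with a bacterial homologue, read 10.70, 10.74 and 10.59 in KD and 9.93, 9.45 and 9.79 in NC. Every KD array lay above every NC array, with the widest spread among the controls of the large-subunit genes that passed (SD 0.25, n = 3), and the change was 0.95 ± 0.12 (limma adjusted p = 0.000352). Its other probe sets rose by 1.08 and 1.34. The annotation gives a further pair of probe sets to MRPL33 together with BABAM2, a gene of the BRISC and BRCA1-A deubiquitinating complexes. These were left out by the rule of 1 symbol per probe set, and they fell, by -1.18 and -1.22 (limma adjusted p = 2.01e-05 and 1.69e-05 over all probe sets). The probe set with BABAM2 as its only symbol read 9.08, 9.11 and 9.10 in KD and 9.92, 9.95 and 10.07 in NC, and fell by 0.89 on the log2 scale (limma adjusted p = 5.33e-05). Which transcripts the shared pair reads was not tested. MRPL49, a mitochondria-specific protein, read 9.65, 9.68 and 9.80 in KD and 9.27, 9.12 and 9.34 in NC. Its groups did not overlap, and it changed by 0.47 ± 0.089 (limma adjusted p = 0.00311) on its only probe set.

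Among the 27 genes that did not pass, changes lay between -0.29 (MRPL2) and 0.25 (MRPL23), and their 95% confidence intervals reached from -0.52 to 0.46. In 8 of these every KD array was below every NC array, in 6 above, and in 13 the groups overlapped. MRPL38 was at -0.010 ± 0.092 and MRPL32, which is matured by the m-AAA protease of the inner membrane, at -0.052 ± 0.097. MRPL23 (0.25 ± 0.088, limma adjusted p = 0.0554) and MRPL39 (0.25 ± 0.093, limma adjusted p = 0.0718) came closest to a rise, and either or both passed in several alternatives. MRPL53, a further protein of the large subunit, is not among the 48 because its probe sets are shared with CCDC142 in the annotation. They were at 0.042 and -0.079 and did not pass.

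Several probe sets were present for 27 of the 48 genes. All 17 further probe sets of the falling genes other than the target were negative, 10 of them past the threshold in a fit over all probe sets, in which 14.1% of probe sets were lower and 16.5% higher. Of the 28 further probe sets of genes that did not pass, 3 fell and 1 rose. A dimmer probe set of MRPL52 fell by 0.76 on the log2 scale, while the other 4, all brighter, were between -0.080 and -0.012. A second probe set of MRPL19 fell by 0.50 on the log2 scale, whereas its brightest was at 0.095. In MRPL18 a second probe set fell by 0.27 on the log2 scale, close to the -0.26 of its brightest, and in MRPL4 a dimmer one rose by 0.31, where the brightest was at 0.078. MRPL45 has 2 probe sets with the same value in all 6 arrays, which are thus 1 reading. A further probe set, annotated to MRPL45 together with MRPL45P2, was left out by the rule of 1 symbol. It was at -0.26 and fell (limma adjusted p = 0.0384 over all probe sets). Of the falling genes 7 have a single probe set.

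**Figure D3:**
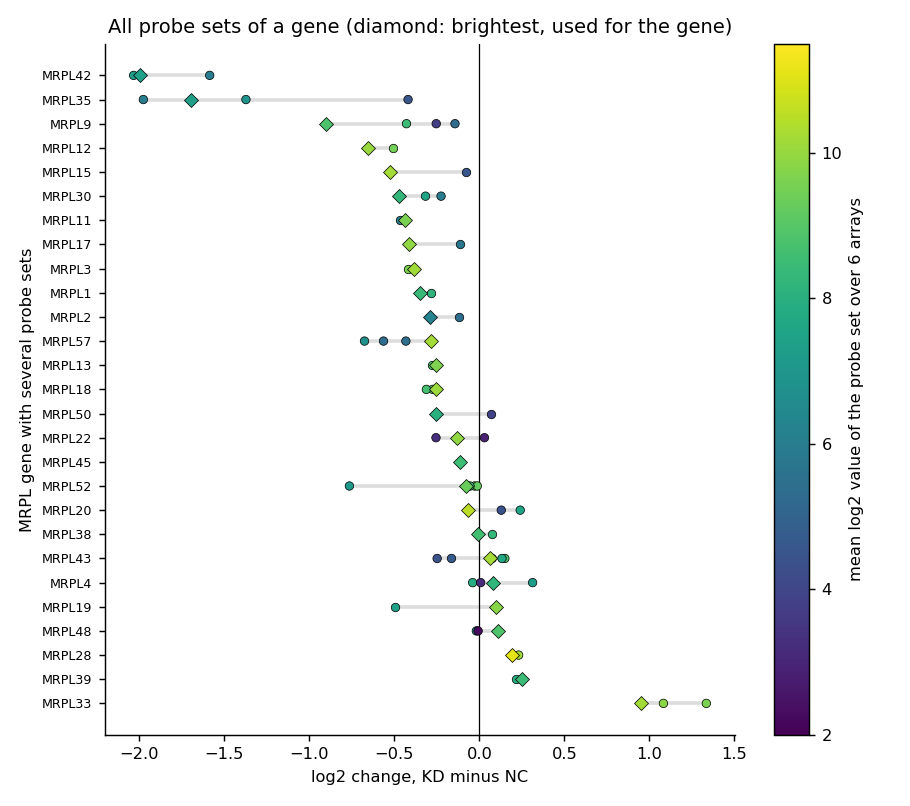
Log2 change (KD minus NC, horizontal axis) of every probe set of the 27 large-subunit genes with several (vertical axis); diamonds mark the brightest probe set, which stands for the gene, circles the others, and the colour is the mean log2 value over 6 arrays. Probe sets of MRPL42 (-2.03 to -1.59) and MRPL33 (0.95 to 1.34) lie on one side of 0, and MRPL52 and MRPL19 each have a probe set far from the rest, at -0.76 and -0.50.

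Promoter sequence was looked at because nuclear genes of mitochondrial proteins are known for promoters bound by NRF1, by ETS-type factors such as GABPA with GABPB1, and by YY1. RefSeq promoters (GRCh38.p14, 250 bases before to 50 after the start) were taken for 41 of the 48 genes, in 51 promoters. MRPL2, MRPL10, MRPL21, MRPL23 and MRPL35 were not matched. MRPL13 and MRPL15, which fell, were left out by their genomic location. That rule was not applied to the shares of all promoters and of tested genes, so the sets compared differ in this respect. Searching both strands, the YY1 motif AAGATGGC stood in 14 of the 51 promoters (27.5%), against 2.89% of all 35116 promoters. The ETS motif CCGGAAG stood in 35.3% against 10.3%, and the NRF1 motif CGCANGCG in 25.5% against 10.0%. Counted by gene, 13 of 41 held the YY1 motif, 17 the ETS motif and 12 the NRF1 motif, where the shares of 14488 tested genes with a promoter were 4.82%, 17.0% and 17.3%. No match of one motif overlapped a match of another in these promoters. YY1 matches were in 3 of 15 falling genes and in 9 of 24 that did not pass, ETS matches in 4 and 12, and NRF1 matches in 4 and 8. These counts are descriptions of letters, with no test and no reading of binding.

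A selection of the matches in genes that moved is shown in windows of 30 bases, 5′ to 3′ on the strand of the gene, with the motif, or its reverse complement, in capitals. The YY1 windows are given because the largest falls, in MRPL42 and MRPL46, share the match at the same place, beginning at base 9 of the transcript. MRPL49, which rose, has it at base 24. A YY1 match began after the start in 9 large-subunit genes, between bases 7 and 36. Among them were MRPL38 (base 7) and MRPL45 (base 14), which did not pass and are not shown.
MRPL42 (chr12:93467511-93467540, + strand): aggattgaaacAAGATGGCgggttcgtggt
MRPL46 (chr15:88467362-88467391, - strand): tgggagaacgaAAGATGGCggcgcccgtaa
MRPL36 (chr5:1799854-1799883, - strand): ccccccccgccGCCATCTTccttcctggca
MRPL49 (chr11:65122333-65122362, + strand): cgtagcaggtaAAGATGGCagctaccatgt
The ETS windows set MRPL33, which rose, beside MRPL3, MRPL16 and MRPL58, which fell; MRPL33 and MRPL58 hold the match 8 bases before the start. Not shown are the ETS match of MRPL30, which fell, 145 bases before the start and a further one of MRPL58, 193 bases before it.
MRPL33 (chr2:27771700-27771729, + strand): cgggccgtgccCCGGAAGcagttgttgttg
MRPL3 (chr3:131502985-131503014, - strand): tgtaaaacgcaCCGGAAGtgggtccggcgg
MRPL16 (chr11:59810766-59810795, - strand): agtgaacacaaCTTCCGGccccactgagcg
MRPL58 (chr17:75012651-75012680, + strand): ggaagcgcccgCCGGAAGcagtcgcaagac
The NRF1 windows are those of the 4 falling genes that hold this match; the first of the 2 matches in MRPL17 is shown.
MRPL17 (chr11:6683402-6683431, - strand): aggctctgatgCGCATGCGcaaacacgttc
MRPL30 (chr2:99181058-99181087, + strand): tgatacccaggCGCCTGCGctctctttcta
MRPL36 (chr5:1799928-1799957, - strand): tcgcactccagCGCCTGCGcactcgctgct
MRPL57 (chr13:21176574-21176603, + strand): cctcggctctgCGCAGGCGcagtcctctct

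Of 5 genes for factors of such promoters 3 fell, where 15.9% of all genes did. YY1 read 10.07, 10.03 and 9.87 in KD and 10.85, 10.57 and 10.79 in NC, a change of -0.75 ± 0.10 (limma adjusted p = 0.000443). GABPA (-0.59 ± 0.14) and GABPB1 (-0.44 ± 0.11) fell as well, while NRF1 (-0.086 ± 0.088) and ESRRA (0.10 ± 0.084) did not pass. Whether these levels bear on the large-subunit genes was not tested.

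The large subunit also holds GADD45GIP1, MRPS30 and MRPS18A, whose names lie outside the rule. They were between -0.067 and 0.065, and 0 of the 3 passed limma, at an adjusted or an unadjusted p under 0.05. Of 20 measured factors that assemble the large subunit or modify its ribosomal RNA, 7 fell (35%) and 2 rose (10%). Over all genes 15.9% fell and 17.6% rose. The median change of these factors was -0.087. MTERF3, of the transcription termination factor family, fell most (-0.60 ± 0.089). The ribose methyltransferases of the large-subunit ribosomal RNA, MRM1 (-0.58 ± 0.11), MRM3 (-0.53 ± 0.084) and MRM2 (-0.34 ± 0.089), all fell. The pseudouridine synthase RPUSD4 rose most (0.84 ± 0.11), followed by the methyltransferase NSUN4 (0.65 ± 0.10).

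The small subunit moved by similar amounts. Of 29 measured genes 11 fell (37.9%) and 1 rose (3.45%), where over all genes 15.9% fell and 17.6% rose. The median change of the 29 was -0.14. MRPS27 changed most (-1.23 ± 0.14), and MRPS15 rose (0.29 ± 0.084). Among 13 translation factors (median change -0.19) 5 fell (38.5%) and 1 rose (7.69%). These were led by the release factor MTRF1 (-0.62 ± 0.095) and, upwards, by the initiation factor MTIF3 (0.30 ± 0.092). MTRF1 was dim, at percentile 36.7 of all genes. Of 43 measured proteins of the cytosolic large subunit, 5 fell (11.6%) and 0 rose in limma at an adjusted p under 0.05. That share of falls was below the 15.9% of all genes, although 39 of the 43 changes were negative. In 28 of the 43 every KD array lay below every NC array, and in 0 above. At an unadjusted p under 0.05 in limma the counts of falls and rises were 7 and 0, and the median change was -0.11. Mean levels were high in this list, with a median at percentile 99.6 of all genes, although RPL27A, which fell, stood at percentile 29.1. RPL35A (-0.74 ± 0.13) changed most there. No difference between these lists was tested.

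**Figure D4:**
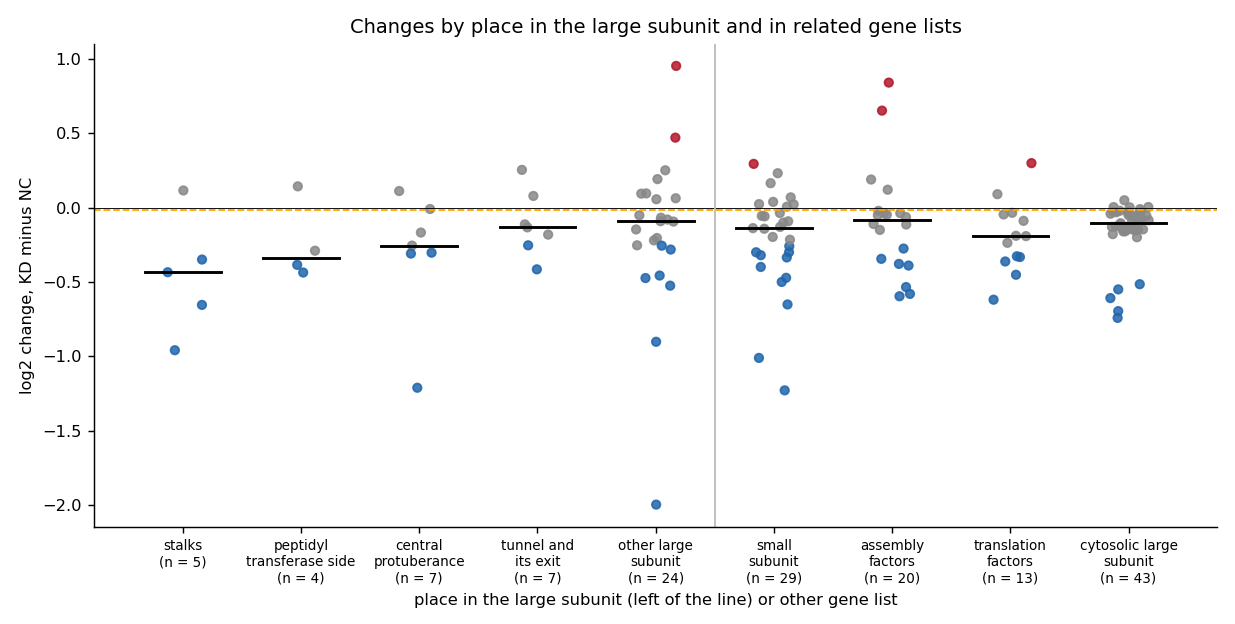
Log2 change (KD minus NC, vertical axis) of single genes by their place in the large subunit without the target (left of the grey line) and in related gene lists (right of it); blue points fell, red rose and grey did not pass, black bars are medians and the dashed line is the median of all genes. Of 5 stalk genes 4 are blue (median -0.43), while the genes at the tunnel have a median of -0.13 and the small subunit one of -0.14.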

How the data were processed

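The authors' deposited table holds 49395 probe sets on 6 arrays and was used as log2 values. The log base, summarisation and normalization are not given in the sources used here; log2 was inferred from their range, up to 14.3. Names came from the platform's annotation, where 45278 probe sets had 1 symbol, 1333 several, 2682 none, and 102 were controls. A gene was represented by its brightest probe set over 6 arrays. The gene test was limma 3.58.1 under R 4.3.3 (group as the only term, two-sided, Benjamini-Hochberg over 18244 genes, threshold 0.05, 4 residual and 4.67 prior degrees of freedom), run likewise on 49293 probe sets. The steps were tested on simulated data. Groups and numbers came from the titles.

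Members and lists were chosen with earlier results of these data known. Named with values in every array were MRPL35 and members past the threshold with a change of at least 0.5; MRPL49, YY1 and BABAM2 were added after their values were seen, as were the 3 promoter motifs. Proteins were not shown. Alternatives were quantile normalization, median centring, array weights, eBayes with trend and robust fitting, a block for replicate number, averaging probe sets, dropping x and s probe sets, leaving out genes below the 40th percentile, and leaving out each array. Scanner files were not used here.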

Additional observations from a re-analysis of the deposited data

How the results depend on the processing

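All 14 alternatives kept the target, 11 of the 18 falling genes and both rises in their direction and past the threshold and reversed none of the 18 falls. Single genes outside the large subunit, such as YY1 and BABAM2, were not run under the alternatives. The target changed by -1.76 to -1.37. Falls among the 47 others numbered 13 to 23, and their median was -0.21 to -0.14, where that of all genes was -0.040 to 0.029. Rises numbered 4 with quantile normalization, array weights or the mean of probe sets, and 5 with trend and robust fitting or without dim genes, against 2. Falls of other probe sets of members numbered 9 to 17 with 1 array left out, with 9 without KD replicate 3, against 16, and their rises 5 with trend and robust fitting, against 3. Adding the replicate number as a block gave 19 falls and 2 rises and lost no call; same-numbered arrays deviated together in 2 pairs (0.254 and 0.265) and not in the third (-0.096), so they were not treated as pairs. The planned pseudocounts did not apply to log2 values. The number of arrays limits changes near 0.25, and background was not measured.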
